A study of Mus musculus with 8 samples.

Results

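The miR-101 family was examined in small RNA libraries from the prefrontal cortex of mice. Its members were taken by name: mmu-miR-101a-3p, mmu-miR-101a-5p, mmu-miR-101b-3p, mmu-miR-101b-5p and mmu-miR-101c (the prefix mmu, for mouse, is left off from here on), which are 5 of the 1915 mature miRNA names listed for each library. Of these 5, 4 had a value above 0 in at least 1 library and 3 reached the levels needed for testing. The family was chosen with results in view, namely the levels of miR-101a-3p and miR-101c in Fkbp5 knockout and wild-type cortex and the near equality of those names. Levels and differences of the members are therefore descriptions, with no p. The count of members past correction, in the fit over all miRNAs, is given only beside the count for all miRNAs.

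The libraries came from C57BL/6 mice at 12 weeks of age, 4 of them Fkbp5 knockout (replicates 1, 2, 4 and 5) and 4 wild type (replicates 1, 2, 3 and 4). The product of Fkbp5 works with the chaperone Hsp90 and dampens glucocorticoid receptor signalling, and the comparison asks which cortical miRNAs differ without it. The labels do not say how the allele was made, the sex of the mice, or whether each library is a separate animal, so errors measure the spread between these samples. The assay does not measure Fkbp5 messenger RNA, which leaves the genotype labels unchecked. Library totals were 17.7 to 19.8 in knockout and 16.2 to 21.6 in wild type, in units of 1000000, the lowest being wild-type replicate 3. The neuronal miRNAs miR-128-3p, miR-124-3p, miR-9-5p and miR-137-3p were present in every library, as the tissue label calls for, with a summed level of 6396000 to 8174000 in knockout and 6208000 to 8030000 in wild type. All levels below are rescaled values, the deposited normalized counts divided by a factor for each library, unless they are called deposited.

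A miRNA hairpin gives rise to a 5p and a 3p product, and the one that Argonaute keeps guides it to messenger RNAs, mainly through bases 2 to 8, the seed. In miR-101 the 3p product is the usual guide. The family is known for repressing EZH2, the histone methyltransferase of Polycomb repressive complex PRC2, in human tumours, and App, the amyloid precursor protein. In the developing mouse hippocampus it is known to restrain the excitability of neuronal networks.

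The mature sequences, from RefSeq on GRCm38.p6, show how far the names overlap. They are written 5′ to 3′ with the seed in capitals.
miR-101a-3p: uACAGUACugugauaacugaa
miR-101c: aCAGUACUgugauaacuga
miR-101b-3p: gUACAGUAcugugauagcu
miR-101a-5p: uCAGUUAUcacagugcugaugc
miR-101b-5p: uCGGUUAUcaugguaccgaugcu
The whole of miR-101c, 19 bases, lies within the 21 bases of miR-101a-3p, starting at its base 2. A read of those 19 bases matches both names. miR-101b-3p shares a run of 15 bases with miR-101a-3p, set off by 1 base because miR-101b-3p begins with an additional g. Over the 18 bases where these names can be aligned they differ by 1 substitution, A16G, counted from 1 at the 5′ end of miR-101a-3p. The annotated starts differ, so the seeds of the first 3 names, in capitals above, are shifted windows on 1 stretch of sequence. Among the 1623 names of the files that were matched to a RefSeq sequence, 0 others carry any of these seeds at bases 2 to 8.

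The hairpins show both arms, here in capitals, in their place around the loop.
Mir101a: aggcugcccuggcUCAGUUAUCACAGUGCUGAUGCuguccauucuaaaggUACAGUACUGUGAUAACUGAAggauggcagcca
Mir101b: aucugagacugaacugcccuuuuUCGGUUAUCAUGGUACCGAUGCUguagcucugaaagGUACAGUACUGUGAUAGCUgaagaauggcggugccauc
The arms lie 15 bases apart in Mir101a and 13 bases apart in Mir101b. Mir101a is on chromosome 4 (101346945 to 101347027, minus strand, GRCm38), in an exon of the long non-coding RNA gene E130102H24Rik. Mir101b is on chromosome 19 (29135279 to 29135375, plus strand), in an intron of Rcl1, a gene that serves in ribosomal RNA processing. Mir101c is on chromosome 9 (3038669 to 3038743) and overlaps no other annotated gene.

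The 3p products were of middle to high abundance and the 5p products were almost missing. miR-101a-3p ranked between 52 and 64 among all names in each library and made up 0.0607 to 0.0800% of the values in knockout and 0.0648 to 0.105% in wild type. miR-101b-3p ranked between 88 and 111. Over the 8 libraries miR-101a-3p averaged 14994 ± 2746, miR-101c 15059 ± 2752, miR-101b-3p 5436 ± 1039 and miR-101a-5p 3.98 ± 3.09 (SD, n = 8). miR-101b-5p was listed at 0 in all 8 libraries.

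The order of these levels was the same in every library. Within libraries miR-101a-3p exceeded miR-101b-3p 2.76-fold, with a mean log2 ratio of 1.47 ± 0.10 (SD, n = 8 libraries). The log2 ratio of miR-101b-3p to miR-101a-5p was 10.8 ± 1.27 and that of miR-101a-3p to miR-101a-5p 12.3 ± 1.21. The pairs with miR-101c in place of miR-101a-3p gave 1.47 and 12.3, since the values of miR-101c and miR-101a-3p nearly coincide. Ligation and amplification can favour one sequence over another, so a ratio between names compares values in these libraries and not molecules in the tissue.

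miR-101c was listed just above miR-101a-3p each time. In deposited values the excess was 51, 73, 57 and 71 in knockout replicates 1, 2, 4 and 5, against 38, 103, 37 and 90 in wild-type replicates 1, 2, 3 and 4. That is 0.402 to 0.590% of miR-101a-3p in knockout and 0.194 to 0.547% in wild type, and the groups overlap. The same near equality was found for the other pairs of this kind among the names that had a sequence to compare. Among 438 names with a sequence and a mean of at least 20, there were 4 pairs in which 1 mature sequence contains a different, shorter one: miR-101a-3p with miR-101c, miR-299a-3p with miR-299b-3p, miR-299a-5p with miR-299b-5p, and miR-374b-5p with miR-374c-5p. The means of all 4 pairs lay within 5% of each other. In 2 of these pairs, 1 of them the miR-101 pair, the shorter name was at least as high as the longer in all 8 libraries. How reads that match several names were assigned is not given in the sources used here, so how much comes from Mir101c itself cannot be told apart from Mir101a.

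miR-101b-3p differs from both by sequence and kept a nearly fixed proportion to them. Its ratio to miR-101a-3p was 0.348, 0.385, 0.368 and 0.375 in knockout replicates 1, 2, 4 and 5, against 0.402, 0.352, 0.356 and 0.320 in wild-type replicates 1, 2, 3 and 4. The knockout ratios fall inside the wild-type range. Across the 8 libraries the log2 ratio had an SD of 0.10, whereas the log2 levels had an SD of 0.26 for miR-101a-3p and 0.26 for miR-101b-3p. The 2 hairpins lie on different chromosomes, but whether reads of one name were also counted under the other was not tested.

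**Figure D1:**
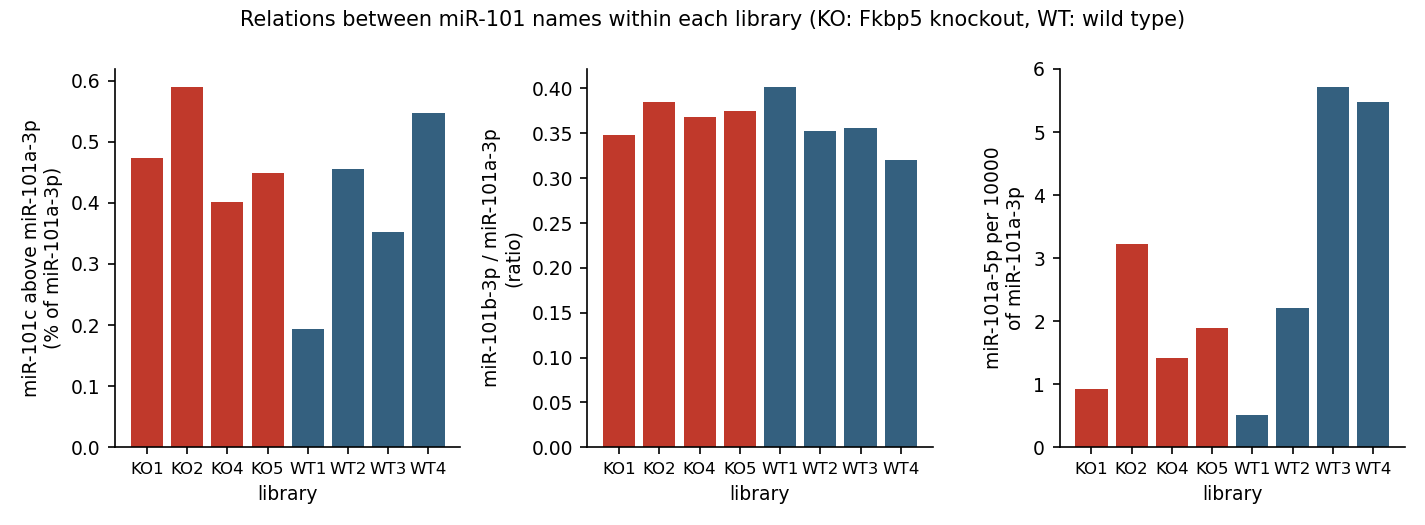
Relations between miR-101 names in each library, from deposited values, with Fkbp5 knockout (KO) libraries in red left of wild-type (WT) libraries in blue. The left panel gives the excess of miR-101c as a percentage of miR-101a-3p (0.194 to 0.590%), the middle panel the ratio of miR-101b-3p to miR-101a-3p (0.320 to 0.402), and the right panel miR-101a-5p per 10000 of miR-101a-3p (0.511 to 5.72).

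The passenger arm miR-101a-5p had deposited values of 1, 4, 2 and 3 in knockout replicates 1, 2, 4 and 5, and of 1, 5, 6 and 9 in wild-type replicates 1, 2, 3 and 4. It stayed under the minimum of 10 in every library and was not tested. Per 10000 of miR-101a-3p it was at 1.87 ± 0.991 in knockout and 3.48 ± 2.54 in wild type (SD, n = 4 each), and these ranges overlap. On a log2 scale, after adding 0.5, miR-101a-5p over miR-101a-3p was -12.2 ± 0.593 in knockout and -11.8 ± 1.41 in wild type.

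By listed values, both hairpins were among the more one-sided in these libraries. Of 149 hairpins with both arms named and a mean sum of at least 1000, the median share of the minor arm was 1.16%. In miR-101a that share was 0.0265%, which ranked 17 from the most one-sided. Its 3p values could include reads from Mir101c, so this share holds for the listed names and not for the Mir101a hairpin alone. miR-101b was 1 of 4 hairpins whose minor arm was listed at 0 in all libraries. The 3p product was the major arm in 67 of the 149 hairpins.

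**Figure D2:**
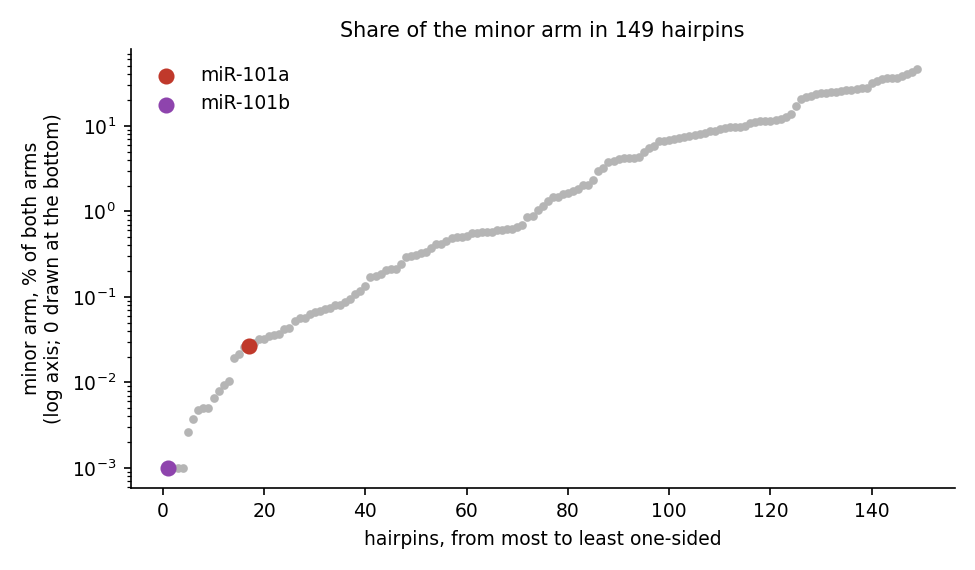
Share of the minor arm, as a percentage of both arms on a log axis, in 149 hairpins ordered from most to least one-sided, with a share of 0 drawn at the bottom. miR-101a (red) lies at 0.0265% and miR-101b (purple) at 0, against a median of 1.16%.

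Between genotypes, the 3p products had lower mean levels in knockout cortex, by 20.6% for miR-101a-3p and 17.9% for miR-101b-3p on the log2 scale turned back to folds, but 1 wild-type library lay among the knockout values. These are the values the family was chosen on. miR-101a-3p was at 12348, 12656, 13811 and 13946 in knockout replicates 1, 2, 4 and 5, and at 18155, 18670, 12518 and 17852 in wild-type replicates 1, 2, 3 and 4. The groups overlap through wild-type replicate 3, which is lower than 3 of the knockout libraries, while the other wild-type libraries are above every knockout library. The means were 13190 ± 806 in knockout and 16799 ± 2874 in wild type (SD, n = 4 each). The log2 fold change was -0.33 ± 0.13 (SE). miR-101c, at 13253 ± 804 in knockout and 16864 ± 2888 in wild type, repeats this difference (-0.33 ± 0.13).

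miR-101b-3p showed the same arrangement of libraries at a lower level. It was at 4291, 4871, 5078 and 5226 in knockout replicates 1, 2, 4 and 5, and at 7292, 6566, 4456 and 5711 in wild-type replicates 1, 2, 3 and 4. Again wild-type replicate 3 is lower than 3 of the knockout libraries and the other wild-type libraries are above all of them. The means were 4867 ± 410 in knockout and 6006 ± 1219 in wild type, a log2 fold change of -0.28 ± 0.15 (SE).

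**Figure D3:**
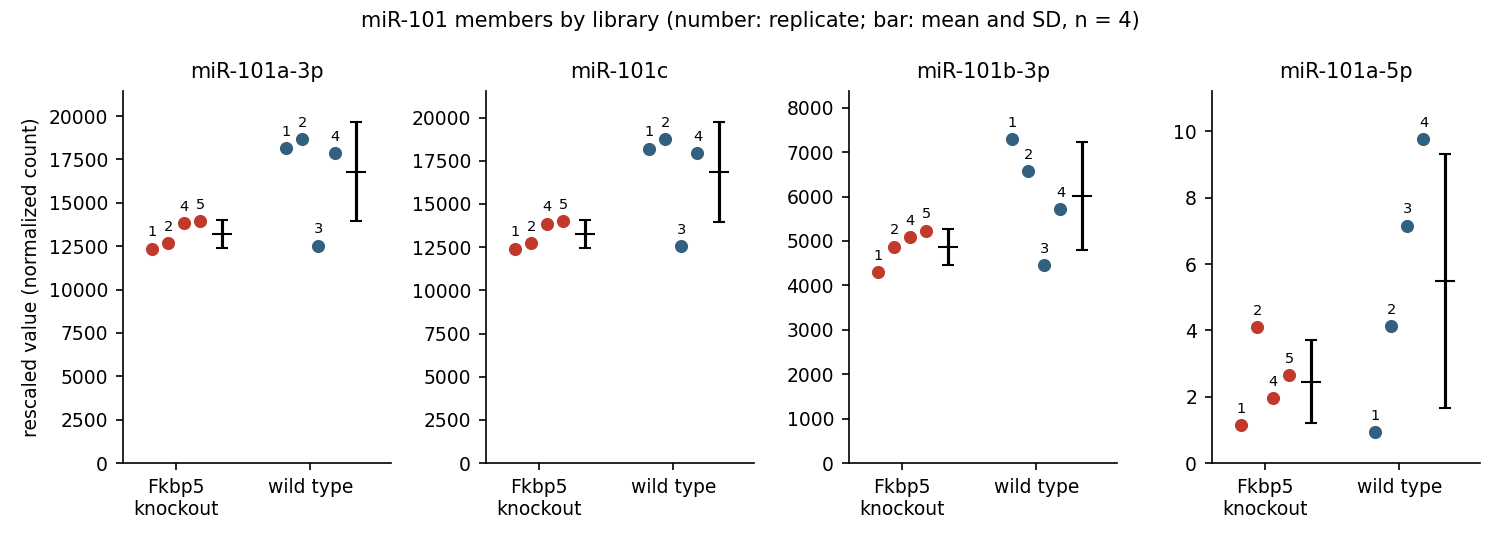
Rescaled values of miR-101a-3p, miR-101c, miR-101b-3p and miR-101a-5p in each library, Fkbp5 knockout (red) left of wild type (blue); small numbers are replicate numbers and black bars the mean ± SD of 4 libraries. Wild-type replicate 3 sits among the knockout libraries for the 3 abundant names (12518 for miR-101a-3p), and miR-101a-5p stays under 10.

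By limma with Benjamini-Hochberg adjustment, 0 of the 3 tested members passed 0.05, and the share of all 599 tested miRNAs that passed was 0%. At an unadjusted p under 0.05 by limma there were 25 of the 599, 8 higher and 17 lower in knockout. That share is below the 0.05 that chance alone would give. Names with identical values are counted separately, as miR-199a-3p and miR-199b-3p are among the lower. The 3 members had lower mean log2 values in knockout, as did 46.4% of all tested miRNAs, whose median log2 fold change was 0.01. Ranked from the most lowered, miR-101a-3p lay at percentile 6.68 and miR-101b-3p at percentile 8.51 of the 599. Groups that did not overlap, with knockout lower, were found for 0 of the 3 members and for 1.34% of all tested miRNAs. Without wild-type replicate 3 the groups were apart for all 3 members, against 3.01% of all tested miRNAs, but that library was singled out on these values.

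**Figure D4:**
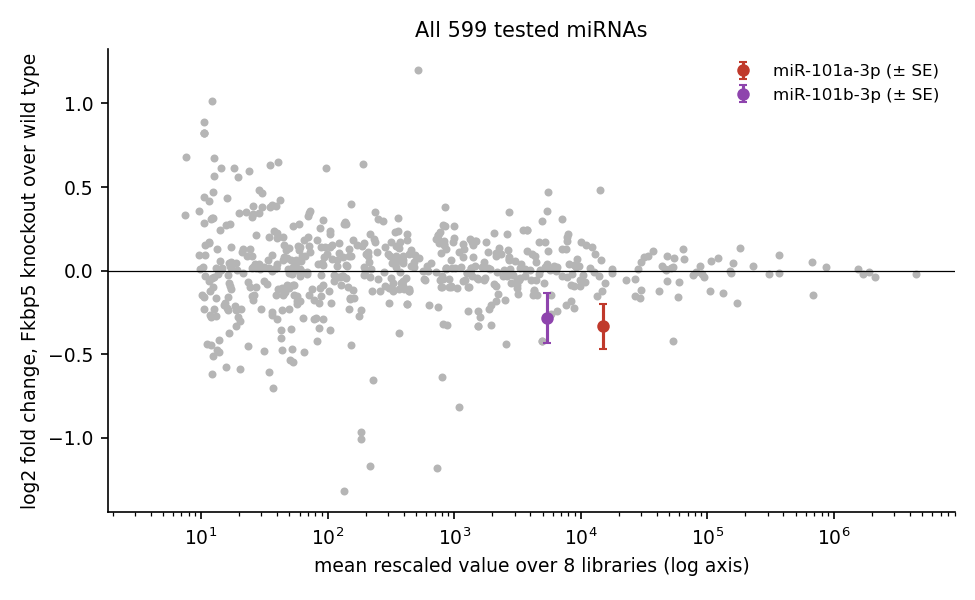
Log2 fold change, Fkbp5 knockout over wild type, against the mean rescaled value on a log axis for all 599 tested miRNAs (grey). miR-101a-3p (red, -0.33) and miR-101b-3p (purple, -0.28) are drawn with their SE and lie in the lower part of the cloud.

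The size of the difference rests on wild-type replicate 3 more than on any other library. Without it the wild-type mean of miR-101a-3p was 18226 ± 414 (SD, n = 3), and the log2 fold change was -0.47 ± 0.10 for miR-101a-3p and -0.42 ± 0.13 for miR-101b-3p. With any other library left out, the values ran from -0.36 to -0.28 for miR-101a-3p and from -0.32 to -0.18 for miR-101b-3p, whose value nearest 0 was the one without wild-type replicate 1. By limma, 0 of the 3 tested members passed correction in any of these fits. In wild-type replicate 3 the summed levels of red blood cell, endothelial, smooth muscle, oligodendrocyte, microglial, epithelial and neuronal markers each lay within the range of the other wild-type libraries. These sums are carried by their most abundant members. Of the 25 markers taken singly, 6 were lower there than in the other wild-type libraries (miR-144-3p, miR-143-3p, miR-219a-5p, miR-338-3p, miR-142a-5p and miR-124-3p). Another 6 were higher (miR-451a, miR-223-3p, miR-200c-3p, miR-141-3p, miR-9-5p and miR-137-3p) and 13 were within their range. miR-338-3p was at 673 there and at 828 to 877 in the others, and miR-142a-5p at 333 there and at 420.4 to 483 in the others. The opposite arms, miR-338-5p and miR-142a-3p, were within the range of the others. Leukocyte miR-223-3p was at 131 there and at 50.1 to 108 in the others. The part of these markers in the low miR-101 values of that library was not tested.

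**Figure D5:**
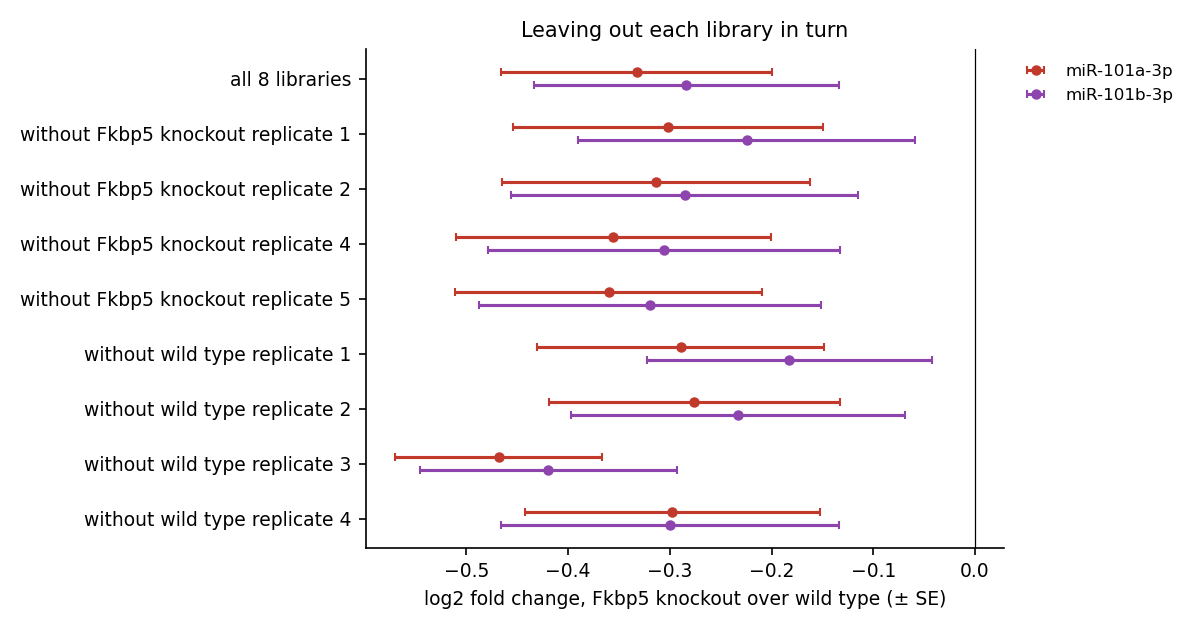
Log2 fold change, Fkbp5 knockout over wild type, of miR-101a-3p (red) and miR-101b-3p (purple) with all 8 libraries and with each library left out, ± SE. All estimates are below 0, from -0.47 to -0.28 for miR-101a-3p and from -0.42 to -0.18 for miR-101b-3p, the lowest being those without wild-type replicate 3. The family was chosen on this difference.

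The spread within genotypes was set beside that of other abundant miRNAs. The coefficient of variation of miR-101a-3p was 6.11% in knockout and 17.1% in wild type, and that of miR-101b-3p was 8.43% in knockout and 20.3% in wild type. Over 205 miRNAs with a mean of at least 1000 the medians were 9.20% in knockout and 14.8% in wild type. The wild-type values of both names include the low replicate 3. Without that library the wild-type levels were 18226 ± 414 for miR-101a-3p and 6523 ± 791 for miR-101b-3p (SD, n = 3). That library was singled out on these values, so the smaller SDs follow in part from the choice. They cannot be set beside the medians, which include all wild-type libraries.

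Markers of other cells that the dissection could hold are given here, because several were lower on average in knockout as well. In bulk tissue, fewer cells of a type and less of a miRNA per cell cannot be told apart. All 4 oligodendrocyte miRNAs had a log2 fold change below 0 (median -0.18), with a summed level of 19930 to 25090 in knockout and 20910 to 31110 in wild type. Both smooth muscle miRNAs were below 0 (median -0.25), summing to 38210 to 65550 in knockout and 57770 to 76860 in wild type. Both endothelial miRNAs were below 0 (median -0.10), with sums of 17030 to 20020 in knockout and 17460 to 24010 in wild type. The oligodendrocyte names are arms of miR-219a and miR-338, and the endothelial names are arms of miR-126a, so they are not separate markers. Of all tested miRNAs 46.4% had a log2 fold change below 0.

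All 4 tested miRNAs of epithelium and olfactory bulb, of 5 listed, were below 0 (median -1.18), with sums of 295 to 2121 in knockout and 527 to 3706 in wild type. Of 4 red blood cell miRNAs 3 were below 0 (median -0.17; sums of 3954 to 5051 in knockout and 3241 to 5459 in wild type). Of 4 microglial and leukocyte miRNAs 2 were below 0 (median -0.17; sums of 9150 to 13060 in knockout and 8719 to 10610 in wild type), as were 2 of 4 neuronal ones (median 0.02). The sums overlap between genotypes for every list, 0 listed markers were at 0 in all libraries, and 0 passed correction by limma. Taken singly, oligodendrocyte miR-219a-5p did not overlap, at 21.4 to 30.8 in knockout and 34.6 to 50.3 in wild type. Groups apart in that direction were found for 1.34% of all tested miRNAs. The part of the listed markers in the levels of miR-101 was not tested.

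Some miRNAs outside the family carry the 6 bases ACAGUA, bases 2 to 7 of miR-101a-3p, within their first 9 bases. They are shown with those bases in capitals.
miR-144-3p: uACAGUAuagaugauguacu
miR-199a-3p: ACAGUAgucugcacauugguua
miR-199b-3p has the same sequence as miR-199a-3p and the same values. miR-144-3p, from a hairpin active in the red cell lineage, was at 15.6 ± 4.69 in knockout and 22.5 ± 19.4 in wild type (SD, n = 4 each). Its log2 fold change was -0.24 ± 0.47 (SE). miR-199a-3p, abundant in mesenchymal cells, was at 4249 ± 866 in knockout and 5613 ± 391 in wild type, with a log2 fold change of -0.42 ± 0.14. Neither passed correction by limma. In miR-144-3p the 6 bases stand at positions 2 to 7, as in miR-101a-3p, and in miR-199a-3p at positions 1 to 6, as in miR-101c.

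Other miRNAs known to repress the same targets had log2 fold changes on both sides of 0. Of 7 miRNAs reported to repress Ezh2, 4 had a log2 fold change above 0 and 3 below (median 0.02), and 0 passed in either direction. The most abundant, miR-26a-5p, was at 1678400 ± 69403 in knockout and 1704900 ± 75889 in wild type (log2 fold change -0.02 ± 0.08), far above miR-101a-3p. Neuronal miR-124-3p was at 0.05 ± 0.15, miR-137-3p at 0.18 ± 0.13 and miR-138-5p at 0.15 ± 0.14. The others were miR-26b-5p (-0.07), miR-214-3p (-0.44 ± 0.41) and miR-217-5p (0.02). Of 5 miRNAs reported to repress App, 2 were above 0 and 3 below (median -0.01), and 0 passed. miR-16-5p, the most abundant of them, was at 46566 ± 4183 in knockout and 48802 ± 6814 in wild type (-0.06 ± 0.12), and neuronal miR-153-3p was at -0.01 ± 0.18. The rest were miR-17-5p (0.15), miR-20a-5p (0.16) and miR-106b-5p (-0.04).

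The miRNAs whose log2 values over the 8 libraries were most like those of the family were looked up among 365 others with a mean of at least 100. For miR-101a-3p these were miR-338-3p, enriched in oligodendrocytes (Pearson r 0.870), miR-136-3p (0.844) and miR-369-3p (0.824). For miR-101b-3p they were miR-154-3p (0.873), miR-488-3p (0.850) and miR-204-5p (0.847). Each is among the 3 highest of 365 values over 8 libraries. Differences between libraries, genotype among them, can act on both miRNAs of a pair, so the coefficients are descriptions with no p. All 6 had a negative log2 fold change, from -0.24 for miR-136-3p to -0.14 for miR-154-3p, and 0 passed correction by limma. They were picked for likeness over the same libraries that give the miR-101 difference. Their sign and their arrangement of libraries therefore largely follow from the choice. miR-338-3p was at 700.5, 630.1, 640.4 and 790.4 in knockout replicates 1, 2, 4 and 5, and at 836.1, 876.6, 673.1 and 828.1 in wild-type replicates 1, 2, 3 and 4. As with the miR-101 names, its lowest wild-type library was replicate 3 and its other wild-type libraries were above every knockout library. Of the other oligodendrocyte miRNAs, miR-219a-5p was also lowest in wild-type replicate 3 (34.6, the others 40.8 to 50.3). miR-338-5p (10303, the others 8970.6 to 12454) and miR-219a-2-3p (13620, the others 10846 to 17776) were not.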

How the data were processed

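Small RNA from mouse prefrontal cortex was sequenced in 8 libraries. The submitters' processing notes name cutadapt 1.11, Bowtie 1.1.2, HTSeq 0.6.1p1, edgeR and build mm10, without order or settings. Per the file headers, the deposited values are counts that the authors normalized by a method not given in the sources used here. Being whole numbers of no stated unit, these deposited values were handled as a score, and no count model was run. Values were rescaled by a trimmed mean of log ratios (30% of ratios and 5% of levels trimmed at each end). A miRNA was tested if at least 4 libraries had 10 or more, after scaling to the median total, and the sum was at least 15. log2(value + 1) was compared with limma 3.58.1 in R 4.3.3 (empirical Bayes with trend, Benjamini-Hochberg adjustment at 0.05); this scale understates changes of low miRNAs. The planned sign-flip test of the order of levels is not reported, because levels entered the choice of the family. The fit was tested on simulated data. Sequences come from RefSeq, and positions from RefSeq and GENCODE on GRCm38, the assembly that mm10 names. The named miRNAs are all members, the 3 most alike to miR-101a-3p and to miR-101b-3p, carriers of the shared 6 bases, and lists for Ezh2, App and cell types. Members and lists were chosen with earlier results of these data known. Because depth in reads is not known from normalized values, no counting intervals are given.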

Additional observations from a re-analysis of the deposited data

Results flagged for a closer look

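In groups of 4 libraries, 6 of 58 had 1 library well away from the rest (a gap above 0.829 of the group's range), where chance gives 2.9. The 58 are not independent, since some names repeat each other's values. The family was also chosen on the levels of miR-101a-3p and miR-101c, and miR-369-3p for its likeness to miR-101a-3p. The count therefore cannot be weighed against the chance figure. Wild-type replicate 3 was far below the others for miR-101a-3p (12518, the others 17852 to 18670) and for miR-101c (12562, the others 17949 to 18755), which nearly coincide. It was also low for miR-369-3p (22761, the others 29270 to 30414), 1 of the miRNAs most like miR-101a-3p. For miR-101b-3p the same library was the lowest of its group (4456) without passing this mark. Knockout replicate 2 was high for miR-199a-3p (5540.2, with 3682.3 to 3907.7 in the rest of its group) and for miR-199b-3p, which has identical values. Wild-type replicate 4 was low for miR-26a-5p (1592000, the others 1731400 to 1755300).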

How the results depend on the processing

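Of 56 alternative values of the log2 fold changes of the 3 tested members, 56 were below 0. The family was chosen on this difference, so the sign largely follows from the choice. The fits also share libraries and miR-101c repeats miR-101a-3p, so the 56 values are not independent. They ran from -0.50 to -0.27 for miR-101a-3p, from -0.49 to -0.27 for miR-101c and from -0.45 to -0.18 for miR-101b-3p over the scalings, pseudocounts, filters, the fit without trend, the fits on 6 libraries and the omission of each library. The values as deposited gave -0.34 ± 0.23 (SE) for miR-101a-3p, and upper quartile scaling gave -0.27, where the median of all miRNAs was 0.07. Labels do not say whether replicate numbers pair the libraries. The mean log2 value of its genotype was subtracted for each miRNA. What remained had correlations of 0.0652, -0.0385 and 0.132 between same-numbered knockout and wild-type libraries. With a replicate block, possible for numbers 1, 2 and 4, 7 miRNAs were past the threshold, against 0 in the same 6 libraries without it, and 0 of the 7 were miR-101 members; the cause was not tested. These 6 libraries lack wild-type replicate 3, and miR-101a-3p was at -0.50 in both fits. The count past the threshold was 0 in the other alternatives. By limma, the miRNAs with an unadjusted p under 0.05 ran from 9 to 51. The 9 were of 599 tested with values as deposited, and the 51 of 1330 tested without a filter. With the stricter filter there were 14 of 323. The order of levels kept its direction under each alternative tried. The difference in the miR-101a arm ratio (-0.44, log2) ran from -1.07 to -0.06, since the 5p arm is at 1 to 9. The mean share of values held by the family was 0.1684% in knockout and 0.2105% in wild type, a difference of -0.04 percentage points. With miR-101c left out of the sum it was 0.0972% in knockout and 0.121% in wild type, a difference of -0.02. Arm ratios of miR-101b could not be computed, because its 5p arm is listed at 0.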
